A study of Homo sapiens with 6 samples.

Results

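Transcripts annotated as retained introns, from genes that also express coding transcripts, were examined in HK2 cells, an immortalised epithelial line from the proximal tubule of human kidney. A retained-intron transcript was taken as a member where its type in the deposited transcript table was retained intron, its mean over the 6 libraries was at least 1 CPM (counts scaled to each library's total) and the coding transcripts of its gene summed to a mean of at least 1 CPM. Of 29752 annotated retained-intron transcripts, 5900 reached 1 CPM. Of these, 246 lacked such a coding partner and 2 belonged to VMP1, the transfected gene, and were left out, so that 5652 members in 3212 genes remained. All cells had received a plasmid that encodes VMP1 with a FLAG tag (VMP1 sits in the membrane of the endoplasmic reticulum and acts in the making of autophagosomes), and RNA was taken 48 hours later. The lysate group held 3 libraries of total cell lysate, and the immunoprecipitate group held 3 libraries of RNA bound to FLAG antibody beads. Both groups carry the plasmid, HK2 is a single immortalised line, and an immunoprecipitate from cells without the tag was not analysed here. Separate cultures are not named in the labels, and the spread behind each p-value, that between these libraries, may therefore be technical.

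An intron that stays in a polyadenylated RNA usually keeps that RNA in the nucleus or brings in a premature stop codon, so most such transcripts give no protein. Some are stored and spliced later, and others are removed by the nuclear exosome or, after export, by nonsense-mediated decay. Genes for splicing factors are known for regulating their own level in this way. A retained-intron transcript shares most of its exons with the coding transcripts of its gene, so the deposited count of each is an estimate from reads that both could have given.

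Sequences are given for a few members as a description, and no test of a difference rests on them. Of the 5652 members, 181 span the hairpin of a microRNA on the same strand, out of 1562 hairpins in the RefSeq table (GRCh38.p14), and only 2 of these members consist of 1 exon, so that the hairpin lies inside the exon. The 2329 nt member of B2M, the light chain of class I histocompatibility molecules (ENST00000623550, chromosome 15, 44715817 to 44718145, plus strand), holds MIR10393, and the 2742 nt member of YY1, a zinc finger transcription factor (ENST00000623799, chromosome 14, 100275729 to 100278470, plus strand), holds MIR6764. The mature microRNAs are shown 5′ to 3′ with the seed, bases 2 to 8, in capitals.
hsa-miR-10393-5p: aGAAUUCUcuuauccaacaucaaca
hsa-miR-10393-3p: uGGUCAGAuuugaacucuucaa
hsa-miR-6764-5p: uCCCAGGGucuggucagaguug
hsa-miR-6764-3p: uCUCUGGUcuuuccuugacag
No seed is shared among the 4. In the YY1 member miR-6764-5p begins at nucleotide 1634, and in the B2M member miR-10393-5p begins at nucleotide 2028. The YY1 member was at 1.02, 0.931 and 1.04 CPM in lysates 1, 2 and 3, then at 3.68, 2.69 and 8.16 CPM in immunoprecipitates 1, 2 and 3. The B2M member was at 16.7, 9.39 and 8.93 CPM, then at 7.01, 11.1 and 7.99 CPM. The YY1 values did not overlap between the groups and the B2M values did, but the YY1 member, with a lysate mean under 1 CPM, was included only through the immunoprecipitates. Neither difference passed the edgeR test over all transcripts (adjusted p = 0.474 for YY1 and 0.767 for B2M).

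Other members begin where coding transcripts of their gene begin. Promoter stretches of 3 such genes, described further on, are shown from 100 bases before to 20 bases after the gene start in RefSeq (GRCh38.p14), 5′ to 3′ on the gene's strand, with capitals from the annotated start of the retained transcript onward. MED12 lies at chrX:71118496-71118615 (plus strand), MTHFD2 at chr2:74198515-74198634 (plus strand) and HSPA5 at chr9:125241324-125241443 (minus strand).
MED12: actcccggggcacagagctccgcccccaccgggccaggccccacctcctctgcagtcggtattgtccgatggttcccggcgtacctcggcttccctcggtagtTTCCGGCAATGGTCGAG
MTHFD2: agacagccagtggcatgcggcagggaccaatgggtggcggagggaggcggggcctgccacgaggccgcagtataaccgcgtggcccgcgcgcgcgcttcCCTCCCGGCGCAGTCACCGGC
HSPA5: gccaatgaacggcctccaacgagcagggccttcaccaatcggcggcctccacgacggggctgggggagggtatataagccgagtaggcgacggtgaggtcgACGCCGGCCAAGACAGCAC
The retained transcript starts 3 bases after the gene start in MED12, 1 base before it in MTHFD2 and 1 base after it in HSPA5. RefSeq promoters of 300 bases were found by symbol for 2672 of the 3212 member genes. On either strand, TATAAA occurred in 5.43% of them and in 9.63% of all 15843 protein-coding promoters. GGGCGG occurred in 71.6% and 58.5%. Member genes are expressed by the rule, while the full set of promoters was not limited to expressed genes. Whether these differences go with retained transcripts was therefore not tested.

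The rule averages both groups, so a member could pass through either. In the lysate mean 3660 members reached 1 CPM and in the immunoprecipitate mean 5369 did, 1992 of them there alone and 283 in the lysate mean alone. A member that passed only through the immunoprecipitates had to be higher there, so medians over all members describe the chosen set, and values for members at 1 CPM or more in lysate, a choice that leans the other way, are given beside them for medians and counts. Just inside the threshold stood transcripts of RPLP1 (1.0011 CPM), RASSF1 and ISOC2 (1.0014 CPM each), and just outside it transcripts of ELP2 (0.9998 CPM), FANCG (0.9997 CPM) and PPP6R3 (0.9994 CPM).

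Members had a median of 6 exons (1 to 85), a median length of 2855 nt and a median mean level of 3.04 CPM. Retained transcripts of such genes under the threshold had medians of 3 exons and 723 nt. CPM is not scaled by length, so the rule itself favours longer transcripts. Its part in this difference, and in those of the ends given next, was not tested. Of the members, 60.2% ended within 50 nt of the end of a coding transcript of their gene, against 16.4% of 21677 retained transcripts under 1 CPM whose gene has such coding transcripts. Starts lay within 50 nt of a coding start for 38.6% of members and 28.6% of those under the threshold. The span of 1644 members (29.1%) overlapped a gene on the opposite strand, and their counts are uncertain because the sources used here do not say whether counting used strand. Most member genes, 2008, had 1 member, 1204 had 2 or more, and DDX3X, an RNA helicase gene, had the most with 17.

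Library totals ran from 77753608 to 92948069 counts in the lysates and from 54363555 to 59293096 in the immunoprecipitates, and no 2 libraries held identical values. VMP1 was at 282 to 291 CPM in the lysates and reached 2568 and 2894 CPM in immunoprecipitates 1 and 3, against 267 CPM in the library labelled immunoprecipitate 2, which therefore goes against its label. Results are given with and without that library. Of 18 epithelial and kidney markers 17 were found and 13 had a mean of 1 CPM or more, with HNF4A under 1 CPM in every library. The 10 fibroblast markers summed to 276 to 309 CPM in the lysates, 71.5 and 80.7 CPM in immunoprecipitates 1 and 3, and 883 CPM in the library labelled immunoprecipitate 2. The 9 neutrophil markers summed to 331 to 588 CPM in the lysates and 17.3 to 407 CPM in the immunoprecipitates, with MPO and ELANE under 1 CPM throughout. The 4 endothelial markers summed to 3.14 to 30.6 CPM, with VWF, CDH5 and KDR under 1 CPM throughout. The part of these RNAs in the results below was not tested.

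Retained-intron transcripts took a larger share of the immunoprecipitates than of the lysates. Leaving out VMP1, all retained-intron transcripts held 5.38%, 5.62% and 5.54% of counts in lysates 1, 2 and 3, and 8.52%, 6.03% and 8.54% in immunoprecipitates 1, 2 and 3. The groups did not overlap, but the library labelled immunoprecipitate 2 lay close to the lysates. The means were 5.51% ± 0.126 and 7.7% ± 1.44 (SD, n = 3 each). An exact two-sided permutation test gave p = 0.1, the smallest that 3 against 3 allows (0.12 after Benjamini-Hochberg adjustment over 6 such measures). Coding transcripts held 87.6%, 87% and 87% in the lysates and 79.8%, 86% and 79.3% in the immunoprecipitates (exact permutation p = 0.1). The members alone held 4.98%, 5.27% and 5.19% in the lysates and 7.71%, 5.48% and 7.81% in the immunoprecipitates. Members at 1 CPM or more in lysate held 4.88%, 5.18% and 5.09%, then 6.61%, 5.12% and 6.18%, so that for them the library labelled immunoprecipitate 2 fell among the lysates.

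Within genes, the level of the retained transcripts was set against that of the coding transcripts as retained counts per 100 coding counts, a ratio that library size and scaling cannot move. Over the 3212 member genes its median was 8.66, 7.8 and 7.53 in the lysates and 28.7, 10.5 and 30.1 in immunoprecipitates 1, 2 and 3. For the 2310 genes with a member at 1 CPM or more in lysate it was 14.4, 12.9 and 12.4, then 39.4, 15.9 and 36.8. Per length, from sums of FPKM, the median over member genes was 11.6, 10.6 and 10.3, then 35.5, 13.6 and 38.7. Both terms of the ratio moved: relative to the lysate mean, the median member gene's retained CPM stood 1.51, 0.44 and 1.43 log2 units higher in immunoprecipitates 1, 2 and 3, and its coding CPM stood at -0.36, 0.05 and -0.47. For the 2310 genes with a member at 1 CPM or more in lysate the shifts were 1.1, 0.27 and 0.89 for retained CPM and -0.46, 0.04 and -0.57 for coding CPM. The rule fixes part of the retained shift over all member genes, and the sizes of the 2 shifts were not tested against each other.

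**Figure D1:**
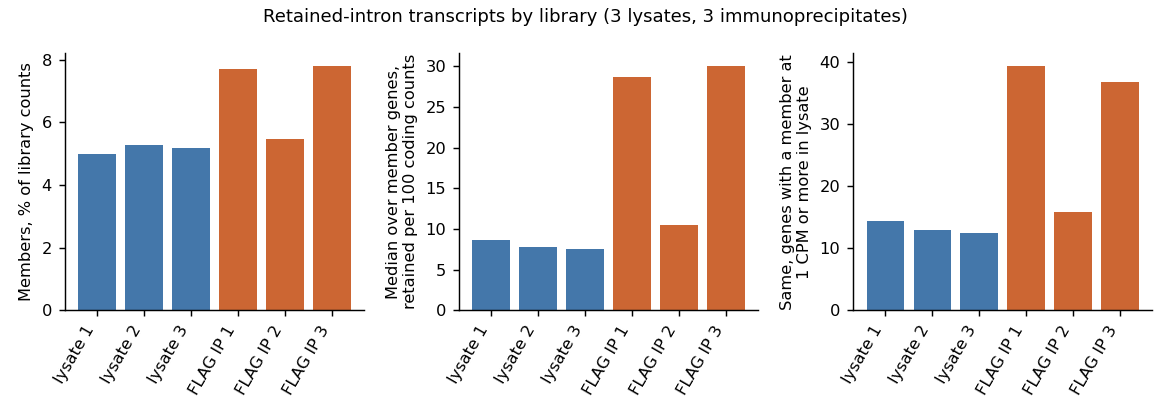
Bars give, for each of the 3 lysates (blue) and 3 immunoprecipitates (orange), the percent of counts in member transcripts, the median retained counts per 100 coding counts over 3212 member genes, and that median over the 2310 genes with a member at 1 CPM or more in lysate. Immunoprecipitates 1 and 3 stand well above the lysates, and the library labelled immunoprecipitate 2 stands near them.

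No single gene's ratio passed the test over all 6 libraries. Of 5904 genes with retained and coding counts, edgeR's quasi-likelihood test called 0 higher and 0 lower at an adjusted p below 0.05 (0% in each direction, lowest adjusted p = 0.279), with 979 at an unadjusted p below 0.05. Member genes, 3212 of the 5904 tested, made up 652 of those 979. Of the 2310 genes with a member at 1 CPM or more in lysate, 329 were among them. DESeq2 on the same counts called 610 of the 5904 genes higher (10.3%) and 48 lower (0.813%), among them 448 and 29 member genes, and limma on log2 ratios called 5 higher (0.0847%) and 1 lower (0.0169%), of which 3 and 0 were member genes. Without the library labelled immunoprecipitate 2, edgeR called 1190 of 5841 genes higher (20.4%) and 59 lower (1.01%), among them 853 and 26 of 3209 member genes. The median log2 change over 6 libraries was 1.4 over member genes and 1.19 over all genes tested. The rule fixes part of the member values. For the 2310 genes with a member at 1 CPM or more in lysate the median was 1.06, below that of all genes tested. Without the library labelled immunoprecipitate 2, edgeR called 457 (19.8%) of them higher and 26 (1.13%) lower, near the shares of all genes tested. Ratios in all 3 immunoprecipitates lay above all 3 lysates for 987 member genes (30.7%) and below them for 58 (1.81%), against 27% and 2.39% of all genes tested. For genes with a member at 1 CPM or more in lysate the counts were 572 (24.8%) and 58 (2.51%) of 2310, which lie near those of all genes tested.

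The most abundant members belonged to housekeeping genes, and several of them were lower in the immunoprecipitates. The retained transcript of EEF1A1, a translation elongation factor (ENST00000488500, chromosome 6, 73517519 to 73521031, minus strand), was at 3344, 5992 and 4859 CPM in the lysates, then at 2156, 4541 and 2327 CPM in the immunoprecipitates, with overlap. That of GAPDH, a glycolytic enzyme (ENST00000474249, chromosome 12, 6534541 to 6538314, plus strand), was at 4455, 4525 and 4564 CPM, then at 948, 3094 and 1113 CPM. The GAPDH groups did not overlap, yet its ratio to coding counts stayed at 171, 169 and 159 per 100 in the lysates and 156, 188 and 147 per 100 in the immunoprecipitates. In ACTG1, cytoplasmic gamma-actin (ENST00000576917, chromosome 17, 81509992 to 81512780, minus strand), the member was at 3162, 3132 and 3122 CPM, then at 602, 1608 and 585 CPM. RPL13A, a ribosomal protein gene (ENST00000479992, chromosome 19, 49487615 to 49491861, plus strand), had 414, 416 and 439 CPM, then 629, 473 and 679 CPM, so that all immunoprecipitates lay higher. None of the 4 passed the edgeR test over 6 libraries. Their adjusted p-values ran from 0.346 for ACTG1 to 0.873 for RPL13A. With the library labelled immunoprecipitate 2 left out, edgeR gave adjusted p-values of 0.046 for EEF1A1, 0.00352 for GAPDH and 0.00428 for ACTG1, all lower in the immunoprecipitate, and 0.363 for RPL13A.

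The level assigned to 2 of the 6 most abundant members differed widely between libraries. The retained transcript of ACTB, cytoplasmic beta-actin (ENST00000477812, chromosome 7, 5527152 to 5530590, minus strand), was at 1.12, 2064 and 1951 CPM in lysates 1, 2 and 3 and at 146, 13.1 and 4.2 CPM in the immunoprecipitates. That of MSN, moesin, which links actin to the membrane (ENST00000697135, chromosome X, 65667654 to 65741915, plus strand), was at 705, 854 and 776 CPM in the lysates, then at 0, 1076 and 0.135 CPM in the immunoprecipitates. Lysate 1 thus held almost no ACTB member, while the other lysates held much. The MSN member was almost absent from immunoprecipitates 1 and 3, and the library labelled immunoprecipitate 2 held more of it than any lysate. The edgeR adjusted p for MSN was 0.94 over 6 libraries and 0.0325 (lower) without that library, and for ACTB 0.586 and 0.416. Among lysates, 858 members (15.2%) differed over 10-fold between the highest and lowest lysate, while 2387 (42.2%) stayed within 2-fold. Single members also sat at 0 in every lysate (36) or in every immunoprecipitate (41).

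At the level of single transcripts, edgeR tested 5475 of the 5652 members among 62534 transcripts. None was called in either direction (0% of all transcripts each way). At an unadjusted p below 0.05 stood 1089 of the 5475 members and 6044 of all 62534 transcripts. Members that passed only through the immunoprecipitates are part of the member counts over all members in this paragraph. DESeq2 called 755 members higher and 65 lower, where it called 3.76% and 3.95% of all transcripts. Without the library labelled immunoprecipitate 2, edgeR called 517 of 5574 members higher and 101 lower, where 2.45% and 6.1% of all 73009 transcripts were called. The median log2 change was 0.99 over the members tested and -0.05 over all transcripts. With library totals in place of TMM scaling these medians were 1.35 and 0.25. For the 3605 tested members at 1 CPM or more in lysate the median was 0.3, and without the library labelled immunoprecipitate 2 edgeR called 213 of such members higher and 101 lower.

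The genes named next have the lowest p-values among those whose ratio groups did not overlap, so that their separation is by choice. In SLC37A4 and SCHIP1, no coding counts were assigned in any immunoprecipitate. SLC37A4, the glucose 6-phosphate transporter of the endoplasmic reticulum (ENST00000526275, chromosome 11, 119024356 to 119029034, minus strand), had coding levels of 9.97, 5.61 and 7.34 CPM and then 0 in all 3, with retained levels of 8.44, 7.25 and 10.5 CPM and then 16.6, 11.8 and 17.8 CPM. Against a floor of 3 coding counts per library its ratio was at least 249-fold higher in the immunoprecipitates. SCHIP1, which encodes a partner of the tumour suppressor merlin (ENST00000482885, chromosome 3, 159852992 to 159894723, plus strand), had coding levels of 12.8, 8.02 and 2.13 CPM, then 0 in all 3, and a ratio at least 322-fold higher. Its retained level was 2.71, 2.24 and 1.25 CPM, then 7.13, 2.56 and 8.23 CPM, and overlapped.

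MED12, MTHFD2 and MINK1 had more retained counts in all 3 immunoprecipitates than in any lysate. In MED12, a subunit of the Mediator kinase module (ENST00000690828, 40 exons, chromosome X, 71118599 to 71137879, plus strand, which starts at the promoter shown above), retained transcripts were at 3.4, 2.85 and 1.7 CPM in the lysates, then at 12.3, 26.2 and 10.7 CPM in the immunoprecipitates. Its ratio went from 4.78 ± 1.46 to 72.7 ± 18.2 per 100 coding counts (SD, n = 3 each). The leading MED12 member itself was at 0 in immunoprecipitates 1 and 3 and at 18.6 CPM in the library labelled immunoprecipitate 2, so that in 1 and 3 the MED12 retained counts lay on other transcripts. MTHFD2, a mitochondrial enzyme of folate metabolism (ENST00000678955, 8 exons, chromosome 2, 74198614 to 74215344, plus strand), had 1.99, 1.89 and 3.46 CPM and then 23.8, 31.4 and 12.8 CPM. Its ratio went from 2.22 ± 0.953 to 24.8 ± 8.27 per 100 (SD, n = 3 each). MINK1, a protein kinase of the misshapen family (ENST00000572330, 31 exons, chromosome 17, 4833399 to 4897805, plus strand), had 2.64, 3.33 and 4.05 CPM and then 10.9, 85.1 and 12.1 CPM. For MED12, MTHFD2 and MINK1 the library labelled immunoprecipitate 2 held the highest retained level of the 6. The log2 changes of their ratios were 3.95 (SE 0.68), 3.51 (SE 0.67) and 3.68 (SE 0.72), each at an edgeR adjusted p of 0.296. The edgeR adjusted p without the library labelled immunoprecipitate 2 was 0.0189, 0.0242 and 0.0198.

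Lower ratios were fewer, and came from fewer retained counts, more coding counts or both. MCL1, a survival protein of the BCL2 family (ENST00000676522, 2 exons, chromosome 1, 150574720 to 150579594, minus strand), had retained transcripts at 363, 338 and 351 CPM in the lysates, then at 161, 229.6 and 288 CPM in the immunoprecipitates, all lower. Its coding transcripts moved the opposite way, from 30.9, 23.6 and 16.1 CPM to 179, 202 and 86.9 CPM. The ratio went from 1597 ± 523 to 178 ± 133 per 100 (SD, n = 3 each). CRIP2, a LIM domain protein (ENST00000547643, chromosome 14, 105474832 to 105480152, plus strand), went from 28.8, 33.5 and 34.2 retained CPM to 3.89, 0.349 and 0.793 CPM. FOSB, a subunit of the AP-1 transcription factor whose member has 1 exon (ENST00000586113, chromosome 19, 45469886 to 45472067, plus strand), went from 3.23, 2.87 and 4.48 CPM to 0.396, 0.294 and 0.641 CPM. NDFIP2, an adaptor of NEDD4-type ubiquitin ligases (ENST00000703124, chromosome 13, 79481211 to 79556027, plus strand), went from 2.7, 1.47 and 2.13 CPM to 0.878, 0.276 and 1.4 CPM, with coding levels of 40.2, 43 and 57 CPM and then 165, 33.1 and 189 CPM. The log2 changes of the ratio were -3.37 (SE 0.73) for MCL1, -3.58 (SE 1.06) for CRIP2, -3.3 (SE 0.83) for FOSB and -2.68 (SE 0.65) for NDFIP2, at an edgeR adjusted p of 0.296 each and between 0.0172 and 0.0423 without the library labelled immunoprecipitate 2.

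The remaining 2 lower ratios rested on members that were at or near 0 in the immunoprecipitates. IGDCC4, a membrane protein of the immunoglobulin superfamily (ENST00000559327, chromosome 15, 65381487 to 65396429, minus strand), had 201, 504 and 671 retained counts in the lysates and 1, 3 and 1 in the immunoprecipitates. The pooled immunoprecipitates held 0.735 retained per 100 coding counts (95% Clopper-Pearson interval 0.238 to 1.72), an interval that covers counting error only. ADAMTSL3, a secreted glycoprotein of the matrix (ENST00000561483, chromosome 15, 83654095 to 84025551, plus strand), had 88, 1173 and 1256 retained counts in the lysates and 0 in all 3 immunoprecipitates, a ratio at least 283-fold lower against a floor of 3 counts per library. Lysate 1 stood apart from the other lysates in ADAMTSL3, with 7.31 retained per 100 coding counts beside 444 and 509.

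**Figure D2:**
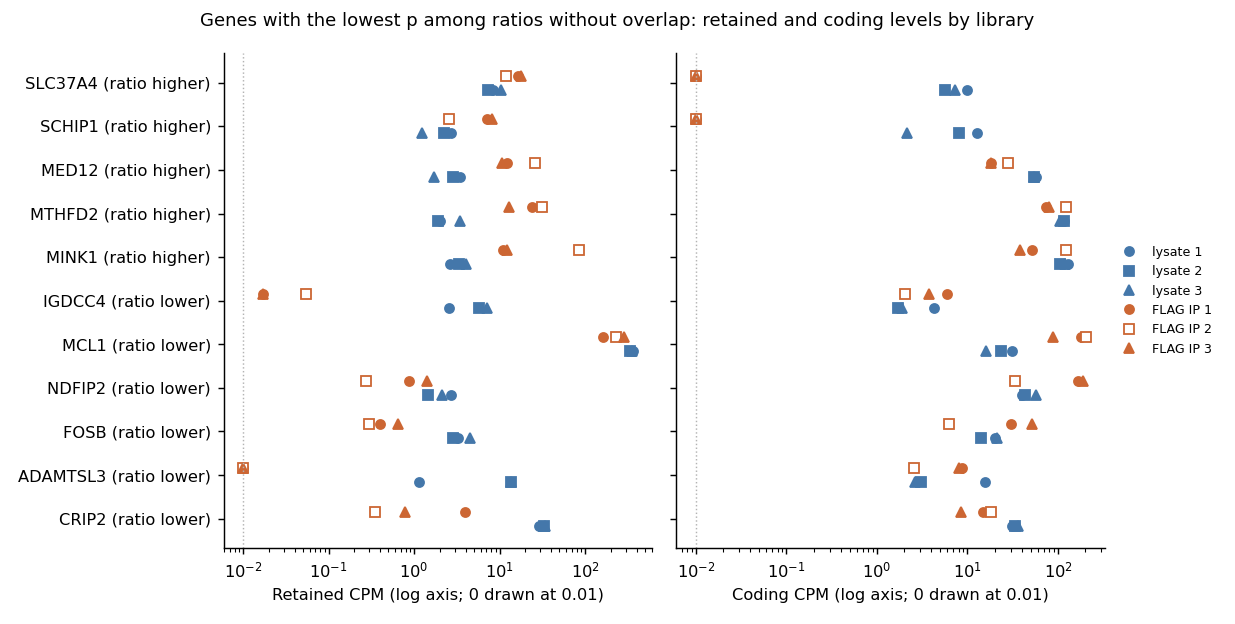
Points give retained CPM (left) and coding CPM (right) on log axes in each of the 3 lysates (blue) and 3 immunoprecipitates (orange, the library labelled immunoprecipitate 2 open) for 5 genes with a higher and 6 with a lower ratio; 0 is drawn at 0.01. SLC37A4 and SCHIP1 had coding counts of 0 in all immunoprecipitates, and ADAMTSL3 had retained counts of 0.

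Where a member lies on its gene went with how much its ratio differed. The 2075 members that share the 3′ end of a coding transcript but begin elsewhere had a median of 2.85, 2.52 and 2.46 retained per 100 coding counts in the lysates and 17.1, 3.76 and 20 in immunoprecipitates 1, 2 and 3. The 856 members that share only the coding start had 4.38, 4.14 and 3.84, then 7.08, 4.83 and 5.47. Median log2 changes, each the mean log2 ratio (with 0.5 added to both counts) of the immunoprecipitates minus that of the lysates, were 1.97 with the coding end only, 1.56 with neither end (1396 members), 0.67 with both (1325) and 0.63 with the coding start only. The 2 kinds that begin at a coding start thus had the smaller differences. The order was the same among members at 1 CPM or more in lysate, with medians of 1.32, 0.88, 0.29 and 0.21. It was also the same per length, at 1.67, 1.39, 0.7 and 0.58. Leaving out the library labelled immunoprecipitate 2 gave medians of 2.72, 2.22, 0.91 and 0.75. All 3 immunoprecipitates lay above all lysates for 31.3%, 33.5%, 13.2% and 18.7% of the 4 kinds, against 21.9% of all 13126 retained transcripts with at least 10 counts on average. Members that passed only through the immunoprecipitates are part of these shares. Among members at 1 CPM or more in lysate the shares were 24.4%, 23.9%, 10.5% and 12.6%, so that the first 2 kinds lay near the share of all retained transcripts.

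The 4 members of 1 exon with the highest mean level all end within 50 nt of a coding end, and they differed in direction. MRFAP1, whose member also begins near a coding start (ENST00000512914, chromosome 4, 6640714 to 6642695, plus strand), had 159, 85.2 and 87.3 CPM in the lysates and 78.5, 64.3 and 43.7 CPM in the immunoprecipitates, all lower. CMTM4, which encodes a membrane protein of the MARVEL domain family (ENST00000581487, chromosome 16, 66614750 to 66621775, minus strand), had 47.2, 11 and 37.2 CPM, then 68.2, 28.7 and 48.5 CPM, with overlap. The member of RPS24, a ribosomal protein (ENST00000480662, chromosome 10, 78038556 to 78040701, plus strand), was at 8.26, 6.9 and 5.21 CPM, then at 80, 6.92 and 84.4 CPM. The library labelled immunoprecipitate 2 thus lay among the lysates for RPS24. The member of SNX5, a sorting nexin of endosomes (ENST00000606570, chromosome 20, 17941600 to 17945530, minus strand), was at 12, 8.18 and 7.51 CPM, then at 71.3, 16.2 and 52.7 CPM, all higher. None of the 4 passed the edgeR test over 6 libraries, with adjusted p-values from 0.414 to 0.943. With the library labelled immunoprecipitate 2 left out, edgeR gave adjusted p-values of 0.0175 for RPS24 and 0.0371 for SNX5, both higher, 0.151 for MRFAP1 and 0.774 for CMTM4.

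By exon number, members with few exons had the larger differences. Median log2 changes were 1.7 for the 177 members of 1 exon, 1.69 for 2 exons, 1.57 for 3, 1.45 for 4 to 5, 1.21 for 6 to 8, 1.07 for 9 to 12, 1.18 for 13 to 20 and 1.55 for 21 or more. Among members at 1 CPM or more in lysate the 8 medians were 1.23, 1.12, 1.14, 0.78, 0.52, 0.49, 0.24 and 0.73. The fall from few to many exons therefore ended before the group with the most exons. Members of 1 exon had 4.3, 3.78 and 3.61 retained per 100 coding counts in the lysates and 13.8, 4.98 and 19.7 in the immunoprecipitates. Across members the rank correlation of exon number with the log2 change was weak (Spearman's rho -0.08, Pearson's r -0.02, 5652 transcripts that share libraries and genes). In lysate 1 the ratio per length had medians from 3.84 to 6.16 per 100 over the 8 groups.

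**Figure D3:**
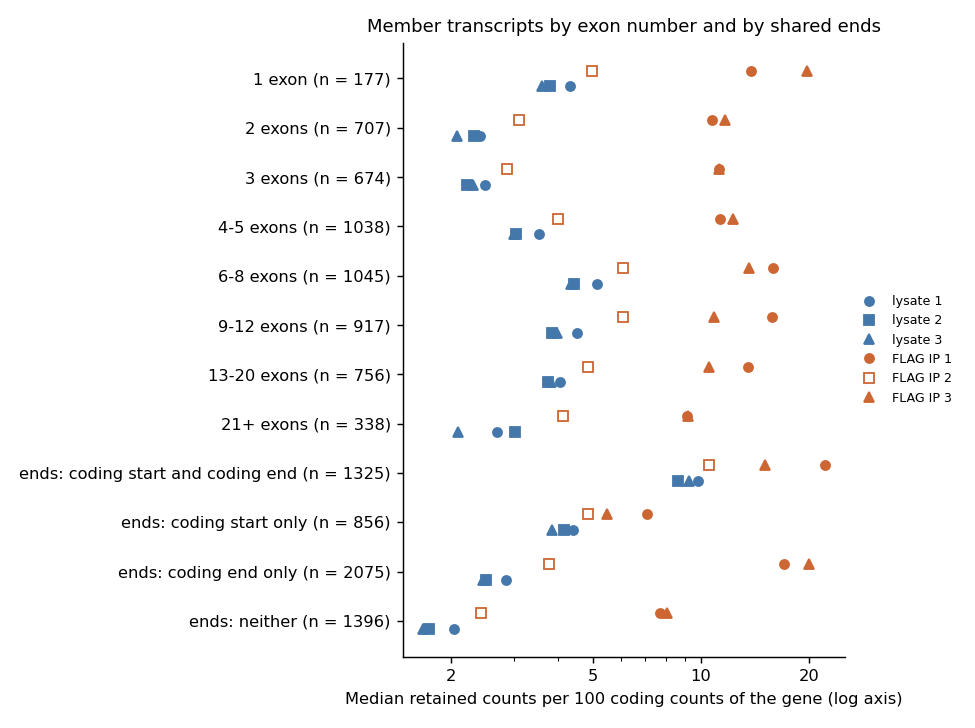
Points give the median retained counts per 100 coding counts (log axis) of members grouped by exon number and by which ends they share, within 50 nt, with coding transcripts of their gene, in 3 lysates (blue) and 3 immunoprecipitates (orange, the library labelled immunoprecipitate 2 open). Members sharing only the coding end go from 2.46 to 2.85 in lysates to 17.1 and 20 in immunoprecipitates 1 and 3, and members sharing only the coding start from 3.84 to 4.38 to 7.08 and 5.47.

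By length, the medians lay closer together. Median log2 changes were 1.45 for members up to 1000 nt, 1.19 for those longer than that and up to 2000 nt, 1.46 up to 3000 nt, 1.47 both up to 4000 nt and up to 6000 nt, and 1.64 above 6000 nt. Among members at 1 CPM or more in lysate the 6 medians were smaller, at 0.62, 0.52, 0.75, 0.9, 0.9 and 0.97, with the shortest groups lowest. The rank correlation of length with the log2 change was 0.05 (Pearson's r 0.05) over the same 5652 transcripts, and 0.03 for the ratio per length. The shortest members had the lowest share by count in lysate, 1.46, 1.22 and 1.17 per 100 coding counts, a difference mostly absent per length (4.12, 3.72 and 3.37 per 100, beside 3.81, 3.87 and 3.88 above 6000 nt). The 142 members that span a small nucleolar or Cajal body RNA had a median log2 change of 1.23, the 181 that span a microRNA hairpin one of 0.82, and all members one of 1.42. At 1 CPM or more in lysate these medians were 0.85, 0.26 and 0.75. These differences were not tested.

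When a gene had 2 or more members, they often did not move together. In 657 of the 1204 such genes (54.6%) all members had a higher mean log2 ratio in the immunoprecipitates, in 76 (6.31%) all had a lower one, and in 471 (39.1%) both directions occurred. Over the 718 genes with 2 or more members at 1 CPM or more in lysate, counting those members, these numbers were 294 (40.9%), 101 (14.1%) and 323 (45%). HSPA5, the endoplasmic reticulum chaperone BiP, had 12 members. Its leading member (ENST00000680640, 5 exons, chromosome 9, 125234860 to 125241342, minus strand, which starts at the promoter shown above) was at 373, 364 and 342 CPM in the lysates, then at 296, 891 and 0 CPM in the immunoprecipitates. Immunoprecipitate 3 held 96.2 CPM over all HSPA5 retained transcripts, against 515 and 1321 CPM in immunoprecipitates 1 and 2.

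HSPA5 was also among the 5 genes with the highest ratio per length in lysate, which were chosen for that value. Per 100 coding counts MED26, a Mediator subunit, had 6908, 27767 and 6254 retained counts in the lysates. JMJD8, an endoplasmic reticulum protein with a Jumonji domain, had 6172, 3236 and 1352, and MPP3, a membrane scaffold of the MAGUK family, had 678, 332 and 646. MCL1 had 1173, 1435 and 2181, and HSPA5 had 714, 1165 and 4361. In these genes most counts of the gene were thus assigned to retained transcripts, and MED26 had coding levels of only 0.154, 0.0345 and 0.14 CPM. In the immunoprecipitates the HSPA5 ratio was 4737, 284 and 21.5, a spread over libraries of 1 group that covered the lysate range. The JMJD8 ratio was 471 and 6727 in immunoprecipitates 1 and 2 and could not be formed in 3, where its coding count was 0. The MPP3 ratio was 67.6, 368 and 2.98, which overlapped the lysates, while the groups of MCL1 did not overlap.

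By gene function, the median log2 change of the ratio was above 0 in each of the 14 lists examined, as it was over all genes tested. With edgeR 0 genes were called in any list over 6 libraries, as over all genes, and the lists are described by their medians and counts. Those without the library labelled immunoprecipitate 2 are read against 26.6% of all member genes called higher, beside 20.4% over all genes tested, where 1.01% were called lower. Genes with a member at 1 CPM or more in lysate are given after each list, read against a median log2 change of 1.06 and 19.8% called higher over all 2310 such genes. The 2 genes named for each list had its lowest p-values in the edgeR ratio test, so that their differences are by choice. Over 6 libraries each had an edgeR adjusted p of 0.296, apart from MRPL46 with 0.315. Among 75 member genes of the splicing machinery the median log2 change was 1.43, and 66 lay above 0. Without that library 26 (34.7%) rose and 0 fell. For the 65 of them with a member at 1 CPM or more in lysate the median was 1.32, and 21 (32.3%) rose. PRPF39, a factor of the U1 particle, had retained levels of 6.8, 6.55 and 4.69 CPM in the lysates and 91.9, 11.5 and 47.2 CPM in the immunoprecipitates, with no overlap. SRPK1, the kinase of SR splicing factors, had 10.4, 4.48 and 9.12 CPM, then 83.6, 61.7 and 182 CPM. The log2 changes of their ratios were 3.14 (SE 0.77) and 4.17 (SE 1.1), each at an edgeR adjusted p of 0.296 over 6 libraries.

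Of 20 member genes of RNA surveillance, the decay of faulty transcripts, 19 lay above 0, with a median log2 change of 1.69. In the test without the library labelled immunoprecipitate 2, 11 (55%) rose and 0 fell. For the 13 with a member at 1 CPM or more in lysate the median was 1.49, and 6 (46.2%) rose. EXOSC7, a core subunit of the exosome, had retained levels of 1.59, 0.989 and 1.07 CPM and then 13.9, 1.88 and 10.1 CPM, while its coding level went from 10.9, 13.2 and 10.7 CPM to 0.826, 4.16 and 4.57 CPM. ZFC3H1, which brings polyadenylated nuclear RNA to the exosome, had 0.206, 0.391 and 0.42 CPM, then 3.68, 0.957 and 5.99 CPM. In both genes all immunoprecipitates lay above all lysates, but both were picked for a low p and included only through the immunoprecipitates.

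Of 44 chromatin and transcription genes 40 lay above 0, with a median of 1.88 and, without the library labelled immunoprecipitate 2, 22 (50%) higher and 0 lower. The 30 with a member at 1 CPM or more in lysate had a median of 1.4, and 13 (43.3%) rose. SETD2, a histone H3 methyltransferase, had retained levels of 2.7, 2.13 and 1.6 CPM in the lysates and 39, 8.42 and 46.9 CPM in the immunoprecipitates. Over 75 zinc finger genes the median was 1.08, with 59 above 0, and 13 (17.3%) rose without that library, less than over all member genes. The 49 with a member at 1 CPM or more in lysate had a median of 0.91, and 7 (14.3%) rose. ZNF518A had retained levels of 25.9, 14.6 and 25.3 CPM, then 132, 23.8 and 128 CPM, which overlapped, while its coding level went from 44.9, 48.9 and 36.2 CPM to 22.6, 5.24 and 5.28 CPM. ZNF839 had 0.167, 0.103 and 0.0861 CPM, then 2.08, 0.386 and 12.4 CPM.

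The highest median belonged to genes of the extracellular matrix and secreted proteins, 3.64 over 19 member genes, of which 18 lay above 0. Their median ratio was also the lowest of the lists in lysate, at 0.8, 0.695 and 0.776 retained per 100 coding counts, and 17.8, 2.58 and 17 in the immunoprecipitates. In the test without the library labelled immunoprecipitate 2, 9 (47.4%) rose and 0 fell. For the 11 with a member at 1 CPM or more in lysate the median log2 change was 2.26 and 4 (36.4%) rose, with ratios of 1.26, 1 and 1.46 per 100, then 45.3, 4.71 and 17. COL4A1, a basement membrane collagen, had retained levels of 0.399, 0.333 and 0.28 CPM in the lysates and 1.95, 0.405 and 5.04 CPM in the immunoprecipitates, while its coding level was 1677, 1731 and 1687 CPM and then 154, 318 and 198 CPM. Its ratio went from 0.0199 ± 0.00364 to 1.31 ± 1.21 per 100 (SD, n = 3 each), with a log2 change of 5.39 (SE 1.19, edgeR adjusted p = 0.296) that passed the test without the library labelled immunoprecipitate 2 (edgeR adjusted p = 0.0166). AGRN, which encodes the heparan sulfate proteoglycan agrin, had 3.32, 4.92 and 3.31 CPM, then 63.2, 7.98 and 20.1 CPM, with coding levels of 466, 491 and 529 CPM and then 139.6, 179.8 and 118 CPM. Fibroblast markers, several of which encode matrix proteins, also moved between libraries (given above), and their part here was not tested.

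VMP1 acts in autophagy and at the endoplasmic reticulum, and lists for both were examined. Of 41 lysosome and autophagy genes 31 lay above 0, with a median of 0.97, and 12 (29.3%) rose without the library labelled immunoprecipitate 2, near the share over all member genes. The 37 with a member at 1 CPM or more in lysate had a median of 0.94, and 10 (27%) rose. PIK3C3, the lipid kinase of early autophagy, had retained levels of 0.926, 1.11 and 0.484 CPM and then 16.9, 2.26 and 19.1 CPM. GUSB, a lysosomal hydrolase, had 1.68, 1.95 and 1.66 CPM, then 34.5, 2.1 and 38.6 CPM, and in both genes the groups did not overlap. Of 29 genes of the secretory pathway 22 lay above 0, with a median of 1.19, below the 1.4 of all member genes, and 7 (24.1%) rose without that library. Of the 21 with a member at 1 CPM or more in lysate edgeR called 0 without that library (8 at an unadjusted p below 0.05), and their median was 0.67. SEC63, which acts in protein entry to the endoplasmic reticulum, had 0.167, 0.253 and 0.183 CPM, then 3.91, 0.478 and 3.46 CPM. SRP9, a protein of the signal recognition particle, had 0.604, 0.701 and 0.807 CPM, then 2.46, 0.865 and 3.59 CPM.

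Cytoskeletal genes had the lowest median, 0.9, with 27 of 41 above 0, and were the only one of the 14 lists with falls without the library labelled immunoprecipitate 2, where 14 (34.1%) rose and 4 (9.76%) fell. Among the 38 with a member at 1 CPM or more in lysate the median was 0.86, no longer the lowest, and 11 (28.9%) rose and 4 fell. ACTR3, a subunit of the Arp2/3 complex, had retained levels of 4.17, 3.44 and 2.99 CPM, then 11.9, 7.45 and 11.5 CPM. Over all its retained transcripts ACTB had 708, 2141 and 2004 CPM, then 287, 181 and 184 CPM, all lower, with 17, 88.7 and 77 per 100 coding counts in the lysates and 18.3, 3.78 and 10.5 in the immunoprecipitates, which overlapped.

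Ribosomal protein genes had a median of 0.93, with 52 of 61 above 0. Without the library labelled immunoprecipitate 2, 17 (27.9%) rose and 0 fell, near the share over all member genes. The 59 with a member at 1 CPM or more in lysate had a median of 0.92, and 16 (27.1%) rose. RPS23 had retained levels of 3.09, 3.46 and 5.72 CPM, then 14.7, 11.3 and 26.8 CPM. RPL21 had 7.81, 7.07 and 5.59 CPM, then 17.9, 5.94 and 24.3 CPM, with overlap. Ribosomal protein genes have near-identical processed copies in the genome, so their counts are uncertain. Translation genes other than these had a median of 1.49, with 33 of 38 above 0, and 8 (21.1%) rose without that library, a smaller share than over all member genes. Those with a member at 1 CPM or more in lysate, 31, had a median of 1.35, and 5 (16.1%) rose. In MARS1, methionyl-tRNA synthetase, the retained level was 0.849, 0.667 and 0.334 CPM, then 1.6, 6.16 and 3.46 CPM. In EIF4A1, the RNA helicase of initiation, it was 21.8, 15.4 and 11.3 CPM, then 35.2, 106 and 48.8 CPM.

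Lists of mitochondrial and metabolic genes lay above 0 for most genes too. The 34 genes of oxidative phosphorylation had a median of 1.98, the 18 of the mitochondrial ribosome 1.48, the 11 of glycolysis 1.51 and the 27 of the proteasome 1.61. Of these genes 17 (50%), 5 (27.8%), 6 (54.5%) and 16 (59.3%) rose and 0 fell without the library labelled immunoprecipitate 2. With a member at 1 CPM or more in lysate the medians were 1.42 over 24 genes, 0.8 over 15, 1.3 over 10 and 1.64 over 18, and 8 (33.3%), 3 (20%), 5 (50%) and 9 (50%) rose. NDUFV1, of respiratory complex I, had retained levels of 2.29, 4.14 and 2.25 CPM, then 12.6, 24.8 and 19.2 CPM, and NDUFS3 of the same complex had 0.965, 0.805 and 1.51 CPM, then 3.72, 4.23 and 3.39 CPM. MRPL2 had 3.2, 3.48 and 3.16 CPM, then 4.55, 7.69 and 5.08 CPM, and MRPL46 had 0.797, 0.563 and 0.581 CPM, then 2.41, 1.88 and 3.54 CPM. All 4 were higher in every immunoprecipitate. PFKL and PFKP, the liver and platelet forms of phosphofructokinase, had 1.2, 2.16 and 1.73 CPM, then 3.2, 8.2 and 3.05 CPM, and 2.92, 1.55 and 1.79 CPM, then 39.2, 3.68 and 39.2 CPM. The 2 subunits of the PA28 proteasome activator differed in direction. PSME2 had 4.01, 2.99 and 2.93 retained CPM, then 12.6, 19.5 and 14.3 CPM, and PSME1 had 52.3, 50.5 and 50.3 CPM, then 20, 19.7 and 5.38 CPM.

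No member of ZFC3H1, EXOSC7, MARS1, COL4A1, PIK3C3, SEC63, SRP9, PFKL, ZNF839, MRPL46 or NDUFS3 reached 1 CPM in the lysate mean. These genes were included only through the immunoprecipitates, where their members had to be higher.

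**Figure D4:**
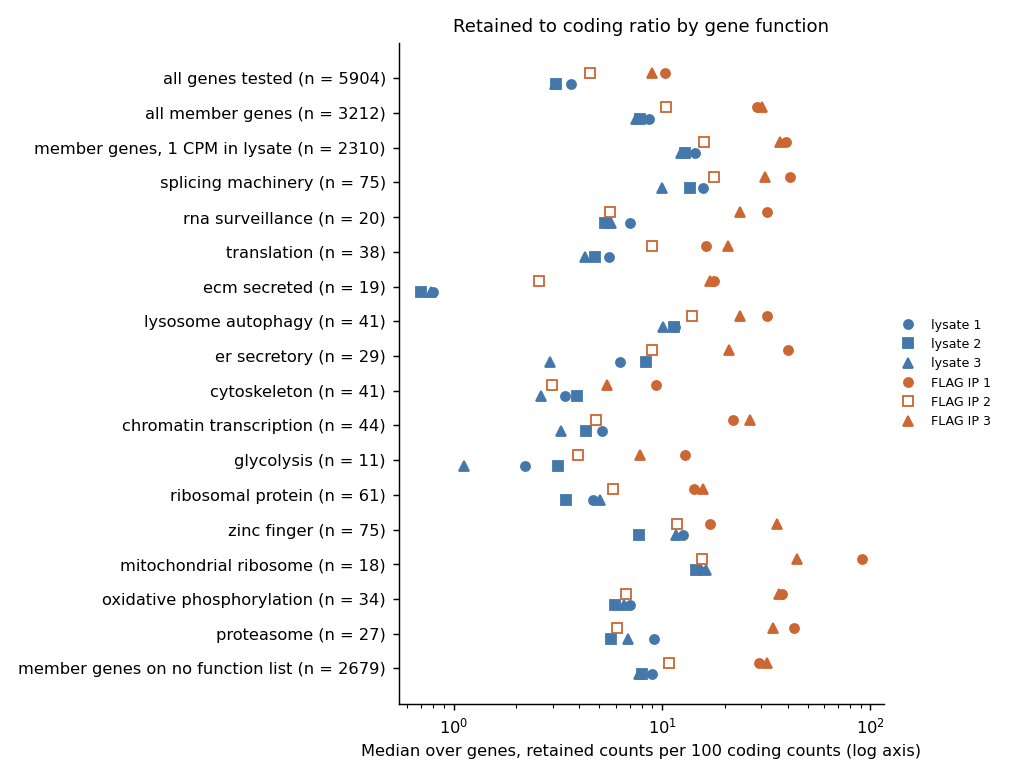
Points give the median over genes of retained counts per 100 coding counts (log axis) for all genes tested, member genes and 14 function lists, in 3 lysates (blue) and 3 immunoprecipitates (orange, the library labelled immunoprecipitate 2 open). Matrix and secreted genes have the lowest lysate medians (0.695 to 0.8) and reach 17.8 and 17 in immunoprecipitates 1 and 3.

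Transcripts annotated for nonsense-mediated decay (NMD), another non-productive product of the same genes, did not show the same shift in their ratio to coding counts. As a share of all counts, leaving out VMP1, NMD transcripts held 3.07%, 3.52% and 3.57% in lysates 1, 2 and 3. They held 4.11%, 3.21% and 4.09% in immunoprecipitates 1, 2 and 3, so that 1 and 3 lay above every lysate. The exact two-sided permutation test of this share gave p = 0.3. In 1587 member genes with all 3 kinds of transcript, the median retained per 100 coding counts was 10, 9.18 and 8.42 in the lysates and 34.4, 11.6 and 33.6 in the immunoprecipitates. The median NMD per 100 coding counts was 4.44, 4.59 and 4.98, then 6.27, 4.21 and 2.26. The NMD values of the 2 groups overlapped, and immunoprecipitates 1 and 3 lay on opposite sides of the lysates. Median log2 changes were 1.37 for retained over coding, -0.07 for NMD over coding and 1.4 for retained over NMD. In all 3 immunoprecipitates the retained ratio lay above every lysate for 466 of the genes (29.4%, against 27% of all genes tested), and the NMD ratio for 155 (9.77%, against 9%; 7.27% of all genes tested lay below every lysate). The edgeR tests called 0 genes for NMD over coding among 3824 (179 at an unadjusted p below 0.05) and 0 for retained over NMD among 2554 (168 at an unadjusted p below 0.05). DESeq2 called 61 member genes higher and 76 lower for NMD over coding (3.92% and 4.21% of all genes tested), and limma on log2 ratios called 1 higher and 2 lower (0.0523% and 0.105% of all). DESeq2 called 152 higher and 21 lower for retained over NMD (8.34% and 1.41%). Without the library labelled immunoprecipitate 2, edgeR called 385 of 1586 shared genes higher and 7 lower for retained over coding. Over all 5841 genes tested for that ratio, 20.4% were called higher and 1.01% lower. For both other ratios 0 were called. For the 1175 shared genes with a member at 1 CPM or more in lysate the median log2 changes were 1.1, -0.17 and 1.21. Among them 216 (18.4%) were called higher and 7 lower for retained over coding, a smaller share of rises than over all genes tested.

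**Figure D5:**
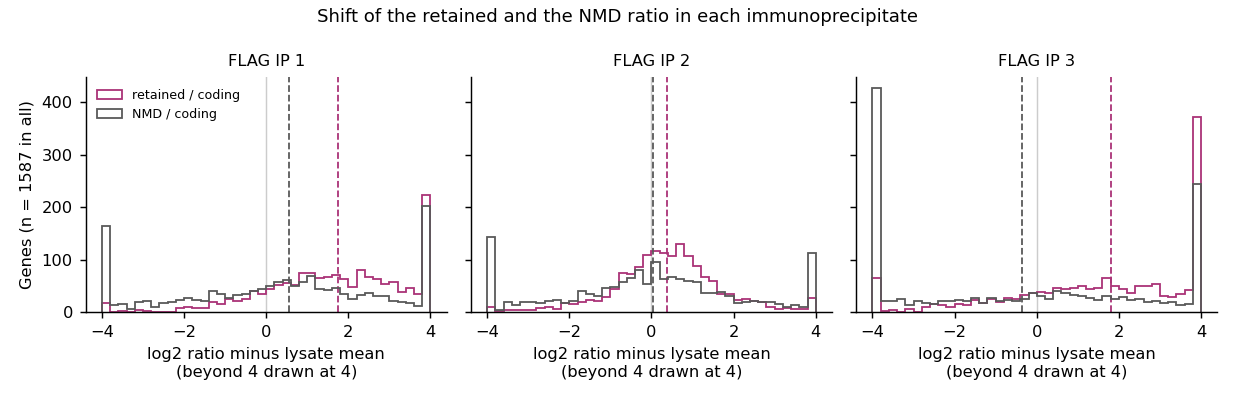
Histograms show, over 1587 genes and for each of the 3 immunoprecipitates, the log2 ratio of retained (purple) and of NMD (grey) to coding counts minus the mean of the 3 lysates; dashed lines are medians and values beyond 4 are drawn at 4. The retained medians are 1.76, 0.38 and 1.82 and the NMD medians 0.56, 0.04 and -0.36 in immunoprecipitates 1, 2 and 3.

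Genes for the splicing and surveillance machinery, summed over all their transcripts, were higher for some factors in the immunoprecipitates without passing the test. The median log2 change was 0.24 over 149 splicing genes and 0.03 over 52 surveillance genes, beside 0.06 over all genes tested. With edgeR 0 of 149 splicing genes and 0 of 52 surveillance genes were called, where 0.16% of all 20593 genes were called higher and 0.5% lower. Without the library labelled immunoprecipitate 2, 72 splicing genes rose and 48 fell, and 22 surveillance genes rose and 21 fell, where 23.9% and 27.2% of 22062 genes were called. RBM25, a splicing regulator, was at 89.6, 87.5 and 85.4 CPM in the lysates, then at 379, 164 and 330 CPM in the immunoprecipitates (log2 fold change 1.58, SE 0.29, edgeR adjusted p = 0.0829). UPF2, a core factor of NMD, was at 55.6, 51.2 and 49.1 CPM, then at 185, 76.9 and 203 CPM. UPF3A, its partner, was at 29.5, 31 and 31 CPM, then at 94.8, 42.8 and 96.8 CPM. For these 3 genes all immunoprecipitates lay above all lysates, and the library labelled immunoprecipitate 2 was the lowest of the immunoprecipitates. The 3 are examples of rises only and do not stand for their lists.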

How the data were processed

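RNA of 6 HK2 libraries was grouped by sample titles into 3 lysates and 3 immunoprecipitates. Oligo(dT) selection and dUTP strand marking are given by the labels' protocols. Without role or order, GRCh38.p14, edgeR, DESeq2, StringTie 2.1.6, HISAT2 2.2.1 and cutadapt 1.9 stand in the submitters' processing notes. The sources used here do not say whether counting used strand. The authors deposited whole-number counts of each transcript and gene. Their FPKM, scaled by length and depth per the file headers, was also deposited.

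Members and lists were chosen with earlier results of these data known. Retained and coding counts were summed per gene, and their ratio was tested with edgeR 4.0.16 (R 4.3.3, quasi-likelihood, a library term plus class by group, library totals, a mean of at least 10 counts, Benjamini-Hochberg threshold 0.05) over all genes with both. Transcript and gene levels were tested with edgeR and TMM scaling. Code was tested on simulated data. Named genes were the 6 most abundant members, the 6 higher and 6 lower ratios with lowest p and groups without overlap, 2 per list by lowest p, the 5 highest ratios per length in lysate and the 3 members nearest the threshold on each side. The 4 examples of 1 exon have the highest mean level, and those with a hairpin were picked by structure; both sets were chosen after values were seen. Alternatives were DESeq2 1.42.0, limma 3.58.1 on log2 ratios of counts or FPKM (0.1 or 1 added), other filters, scalings and thresholds, the replicate number as a block, and each library left out. Alternatives for exon number and ends, and membership at 1 CPM in lysate, were added after seeing the data. Groups follow the titles, since the plasmid carries numbers 1 to 6 in the treatment labels. Of the named genes, 1 is left out of the text.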

Additional observations from a re-analysis of the deposited data

Results flagged for a closer look

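Other non-coding transcript types, which the comparisons above do not use, also took larger shares of counts in immunoprecipitates 1 and 3 than in any lysate. Processed transcripts held 1.03%, 0.939% and 0.994% of counts in lysates 1, 2 and 3 and 2.05%, 1.05% and 2.22% in immunoprecipitates 1, 2 and 3. Long non-coding RNAs held 0.908%, 0.872% and 0.904%, then 2.12%, 1.13% and 2.12%. Retained-intron transcripts of any level whose gene lacks coding transcripts summing to 1 CPM held 0.113%, 0.112% and 0.112%, then 0.256%, 0.14% and 0.264%. The library labelled immunoprecipitate 2 stood near the lysates in each. The cause was not tested.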

How the results depend on the processing

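Leaving out the library labelled immunoprecipitate 2 moved the counts of calls for the retained to coding ratio, for transcripts and for the splicing and surveillance machinery genes, and left those for the 2 ratios with NMD transcripts at 0. Over the 6 fits that each left out 1 library, the ratio gave 0 to 853 member genes higher and 0 to 26 lower, transcripts gave 0 to 517 members higher and 0 to 101 lower, and the machinery genes 0 to 94 higher and 0 to 69 lower, with the upper values all from leaving out that library and 0 from the other 5. The median log2 change ran from 1.13 to 1.89 for the ratio, and from 0.1 to 0.2 for the machinery genes (0.19 with all libraries). DESeq2 called 448 member genes higher and 29 lower for the ratio, 61 and 76 for NMD over coding, 152 and 21 for retained over NMD, 755 and 65 members by transcript, and 49 and 6 machinery genes. limma called 3 member genes higher for the ratio on counts and 3 on FPKM with 0.1 added. For NMD over coding it called 1 higher and 2 lower on counts and 1 higher on FPKM with 0.1 added, and for retained over NMD 1 lower on FPKM with 0.1 and 1 with 1 added. By transcript it called 4 members higher and 4 lower on FPKM with 0.1 added and 4 and 5 with 1 added. It called 5 machinery genes higher with 1 added. For the machinery genes by DESeq2 or limma, and for all limma fits on FPKM, the shares over all features are not given here. Those counts are therefore not read as results about the machinery or the members. The median of the machinery genes was 0.34 with library totals, where all genes stood at 0.19 instead of 0.06, and 0.27 with limma and 0.1 added. With members at 0.5 CPM, 5 CPM or 1 CPM in each group mean, the median log2 change was 1.36, 1.38 and 1.11, with 0 calls. With members at 1 CPM or more in lysate, a choice added after seeing the data, it was 1.06 for the ratio, -0.17 for NMD over coding and 1.21 for retained over NMD, and fell to 0.3 by transcript. Of the 43 genes that the rule names, 35 passed the test without the library labelled immunoprecipitate 2. JMJD8 turned from 1.08 to -0.13 with limma on FPKM with 1 added and, with 1 library left out, ran from -0.79 (without immunoprecipitate 3) to 3.12 (without immunoprecipitate 1). Of 64 alternatives for ends and exon number none turned a direction, and 3 moved a median by more than the spread between libraries. These were the members at 1 CPM or more in lysate that share only the coding start (0.21), have 9 to 20 exons (0.4) or have 21 to 85 exons (0.73). The cause of these movements was not tested.

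Deviations from group means correlated at -0.014 to 0.012 between lysates and immunoprecipitates, so no pairing by replicate number was seen in this measure. With 3 libraries per group it cannot exclude a pairing. With the replicate number as a block the median log2 change was 1.42 for the ratio, -0.06 for NMD over coding, 1.47 for retained over NMD, 0.75 by transcript and 0.12 for the machinery genes, and 0 were called in each. The counts of low members limit what can be seen: at 1 CPM a member has 54 to 93 counts in a library, and assignment between overlapping transcripts adds error beyond counting.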
